A study of Mus musculus with 12 samples.

Results

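ETS transcription factors of endothelium and blood were examined in a DamID-seq profile of Runx1b in haemogenic endothelium, the vessel lining cells that give rise to blood. The genes were chosen by symbol, and 10 were named: Fli1, Erg, Ets1, Ets2, Etv2, Etv6, Elk3, Elf1, Elf2 and Gabpa. Of these, 7 had a row among the 5867 genes of the table, and Ets2, Etv2 and Gabpa had none. A row lists the regions assigned to a gene, the reads counted in them and the reads per kilobase (kb) of region.

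ETS factors share a DNA-binding domain that recognises a GGAA core, and several of them are needed to form vessels and blood in the mouse embryo. Runx1 drives the passage from endothelium to blood, and Runx1 and Ets1 are known to bind DNA together at sites where their motifs adjoin. In DamID a protein is fused to the bacterial methylase Dam, which marks adenines in GATC sequences near its binding places, and the marked fragments are sequenced.

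The cells came from 2 lines of mouse embryonic stem cells of strain 129, both runx1-/-. The line iRunx1b::Damko carries Runx1b fused to Dam and the line iDamko carries Dam alone. FLK1+ cells were taken from embryoid bodies of the same age in all 12 libraries. They were grown for 2 days on gelatin in blast medium with VEGF and IL6. Haemogenic endothelium was then isolated as cKIT+ TIE2+ CD41- cells by flow cytometry (2 libraries per line) or as FLK1+ cells by magnetic selection (4 libraries per line). Each line had 3 biological replicates and 3 libraries called technical replicates, 12 libraries in all. Both groups share the runx1-/- genotype, and nothing in the sources says whether a line is 1 clone.

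The columns of reads name no sample, so the reads may come from the Runx1b::Dam libraries, the Dam libraries or both. A single read count stands for each gene, with no column for separate libraries. No value therefore has a replicate error, the depth of a library is unknown, and Runx1b::Dam could not be compared with Dam for any gene. The intervals given are 95% Poisson intervals, which cover at most counting error and take reads as independent. PCR copies of a fragment may be counted as separate reads, so the intervals may be too narrow even for that. The table holds DNA regions and no expression, so the identity of the cells was not checked from it. Over all genes the median was 1883 reads and 683 reads per kb, with quartiles of 515 and 918 reads per kb.

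Promoter sequence was at hand for 8 of the 10 genes, all but Fli1 and Ets1, from RefSeq on GRCm38. The regions are in mm9 coordinates, so which promoter lies in a region was not determined. Letter strings of 3 kinds were searched on both strands in the 250 bases before the start, using the window farthest upstream where a gene had several. These were GATC, the Dam target, TGTGGT or TGCGGT, cores of the RUNX motif, and CGGAAG, a core of the ETS motif. The motifs share no letters in the windows shown, and capitals mark every match. Windows of Elf1, Etv6 and Ets2 are shown because they hold GATC, that of Elf2 because it holds a RUNX core, that of Gabpa because it holds an ETS core, and that of Etv2, a gene with no region, because it holds none of them. The windows are chr14:79480944-79481193 (plus strand), chr6:134035450-134035699 (plus), chr3:51340645-51340894 (minus), chr16:95702157-95702406 (plus), chr7:30635853-30636102 (minus) and chr16:84834874-84835123 (plus).
Elf1: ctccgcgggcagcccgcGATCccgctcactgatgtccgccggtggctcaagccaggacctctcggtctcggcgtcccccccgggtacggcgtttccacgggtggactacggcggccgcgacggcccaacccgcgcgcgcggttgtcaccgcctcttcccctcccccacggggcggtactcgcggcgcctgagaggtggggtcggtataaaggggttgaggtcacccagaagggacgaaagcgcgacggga
Etv6: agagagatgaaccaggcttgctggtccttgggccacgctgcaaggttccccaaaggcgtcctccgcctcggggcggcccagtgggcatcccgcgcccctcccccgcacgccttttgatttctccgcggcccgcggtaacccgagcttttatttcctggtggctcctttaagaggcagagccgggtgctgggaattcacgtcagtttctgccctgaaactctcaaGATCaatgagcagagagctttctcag
Elf2: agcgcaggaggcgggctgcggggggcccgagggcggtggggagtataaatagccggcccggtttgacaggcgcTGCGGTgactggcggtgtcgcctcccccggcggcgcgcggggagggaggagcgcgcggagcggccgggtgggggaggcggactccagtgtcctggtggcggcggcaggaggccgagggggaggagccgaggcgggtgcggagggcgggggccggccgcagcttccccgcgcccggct
Ets2: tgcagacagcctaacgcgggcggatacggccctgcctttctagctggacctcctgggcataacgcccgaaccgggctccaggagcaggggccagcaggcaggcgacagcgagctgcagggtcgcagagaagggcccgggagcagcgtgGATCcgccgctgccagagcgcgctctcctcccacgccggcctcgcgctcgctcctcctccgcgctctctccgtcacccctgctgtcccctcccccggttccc
Etv2: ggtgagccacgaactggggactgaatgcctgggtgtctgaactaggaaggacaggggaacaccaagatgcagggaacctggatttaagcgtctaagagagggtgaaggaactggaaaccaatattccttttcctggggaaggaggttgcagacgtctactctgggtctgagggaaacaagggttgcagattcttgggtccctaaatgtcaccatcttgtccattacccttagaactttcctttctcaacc
Gabpa: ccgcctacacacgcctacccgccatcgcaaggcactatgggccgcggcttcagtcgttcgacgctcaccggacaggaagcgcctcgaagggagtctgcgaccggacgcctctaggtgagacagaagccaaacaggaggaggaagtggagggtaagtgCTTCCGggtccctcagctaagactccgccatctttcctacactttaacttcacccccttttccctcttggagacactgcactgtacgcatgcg

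GATC was thus in 3 of the 8 windows, a RUNX core in 1 and the ETS core CGGAAG in 1. The shorter GGAA was not searched for and occurs unmarked, as in the windows of Etv2 and Gabpa. Among all 32851 promoter windows of this length 41.9% held GATC, 18.6% a RUNX core and 13.6% the ETS core. The windows of Erg and Elk3 held none of the 3. A match is not a binding site, and a window without one says nothing of the rest of the gene.

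A region was assigned to 7 of the 10 genes (70.0%), against 20.9% of the 21887 protein-coding genes of the RefSeq table (95% exact interval 20.4% to 21.5%). With 2 or more regions there were 6 of the 10, against 6.42% of protein-coding genes, and with 4 or more there were 4, Etv6, Ets1, Fli1 and Erg, against 1.29%. Long genes have a region more often, and all 7 genes lie in the longest 2 of 10 length classes. In the class of Fli1, Erg, Ets1 and Etv6 a region was found at 45.3% of genes, and in that of Elk3, Elf1 and Elf2 at 33.2%. In the first of these classes 24.4% of genes had 2 or more regions and 8.50% had 4 or more, and in the second 13.4% had 2 or more. Ets2, Etv2 and Gabpa are shorter, and in their classes the share was 19.7%, 12.2% and 21.2%. No test was made of the list, whose members were chosen with earlier results of these data known.

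**Figure D1:**
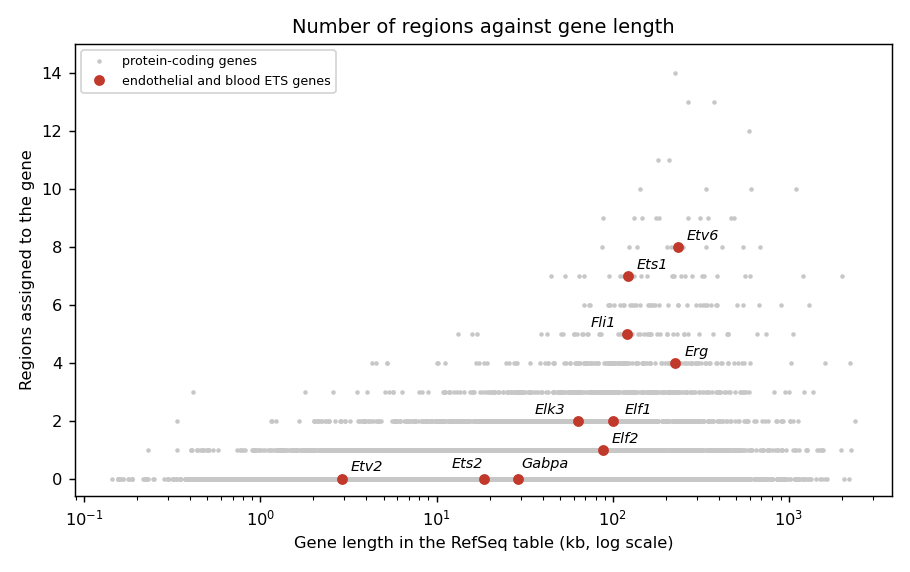
Number of regions assigned to each protein-coding gene (vertical axis) against gene length in kb on a log scale (horizontal axis), with 1 gene of more than 15 regions not drawn. The 10 ETS genes are in red: Etv6, Ets1, Fli1 and Erg have 4 to 8 regions, and Etv2, Ets2 and Gabpa are shorter than the others and lie at 0.

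The 7 genes had 29 regions in all, covering 115.75 kb and holding 85856 reads. None of the 29 was assigned to a second gene, so the reads of each gene are its own. Their median width was 3150 bp, against 2100.0 bp over all 8133 regions, and 23 of the 29 were wider than that median. A width of 4500 bp or more, a limit chosen with widths of these data known, was reached by 9 of the 29, against 7.68% of all regions. The 9 lay at Fli1, Erg, Ets1, Etv6 and Elk3. Between regions of the same gene the gap had a median of 18.4 kb over 22 gaps (1.30 to 79.2 kb), against 14.2 kb over all 3042 such gaps in the table.

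**Figure D2:**
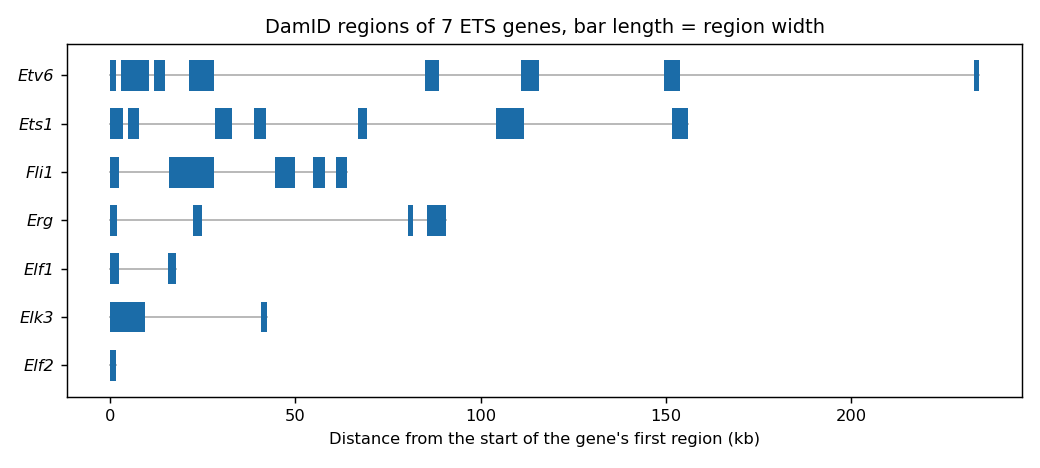
Position of each region along 7 ETS genes, as distance in kb from the start of the gene's first region, with bar length equal to region width. The regions of Etv6 span 234 kb and those of Ets1 156 kb, whereas Elf2 has a single region of 1.70 kb.

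Fli1 and Erg encode close relatives that act in endothelium and in blood stem cells, and both belong to a group of factors that bind together in blood progenitors with Tal1, Lyl1, Lmo2, Gata2 and Runx1. Fli1 (ENSMUSG00000016087) had 5 regions on chromosome 9 between 32310401 and 32374301 (mm9), with 17545 reads. They covered 41.4% of the 63.9 kb they spanned, the highest share among the 6 ETS genes with more than 1 region. The second of them was 12000 bp wide, and only 6 of the 8133 regions, itself included, were as wide. Its neighbours within Fli1 were 2.50, 5.50, 3.35 and 3.10 kb wide.

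Fli1 had 663 reads per kb (653 to 673), just under the median of all listed genes and higher than 47.3% of them. Fli1 was thus near the middle of the table in read density and near its top in region number and width. Of all 5867 listed genes 2.64% had 5 or more regions, and of genes in its length class 5.16%, those with none included.

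Erg (ENSMUSG00000040732) had 4 regions on chromosome 16 between 95573164 and 95663864, with 10218 reads. In its length class 8.50% of genes had as many. Its first 2 regions, of 1.85 and 2.60 kb, lay 20.4 kb apart. After a gap of 55.4 kb came the other two, of 1.40 and 5.10 kb and 3.95 kb apart, so the 4 regions formed 2 pairs. Erg had 933 reads per kb (915 to 951), higher than 75.7% of listed genes. Its interval did not overlap that of Fli1, but there is no replicate, so whether the 2 relatives differ in read density was not tested. Runx1 lies on the same chromosome, and 2.74 Mb separated its last region from the first of Erg.

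Ets1, the gene of the factor that gave the family its name and that acts in endothelium and lymphocytes, neighbours Fli1. Ets1 (ENSMUSG00000032035) had 7 regions on chromosome 9 between 32413801 and 32569701, with 24507 reads, the most of the 7 genes. Of all listed genes 1.02% had as many regions, and 2.24% of genes in its length class. The narrowest was 2300 bp wide and the widest, the sixth, 7500 bp. Their span of 156 kb was 128% of the gene's length in RefSeq, so they reach beyond a gene of that length. Ets1 had 869 reads per kb (858 to 879.8), higher than 71.2% of listed genes and above Fli1.

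The last region of Fli1 and the first of Ets1 were 39.5 kb apart, with no region of another gene between them. Together the pair had 12 regions within 259 kb and 42052 reads, and the regions covered 21.1% of that stretch. When every region of the table was taken as the start of a window of this length, the median window held 3 regions and 0.504% of windows held 12 or more. Taken in order along each chromosome without overlap, those windows numbered 15, that of Fli1 and Ets1 among them, and some of the 15 may adjoin. The window length was cut to fit the 12 regions of the pair, so the 0.504% describes the stretch and is not a test.

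Beyond this stretch the table was sparse on one side. The next region after Ets1, at the long intergenic RNA 4930581F22Rik, came after 2355 kb, and only 2.51% of the 8112 gaps between neighbouring regions were as long. On the Fli1 side the nearest region, at the potassium channel gene Kcnj5, was 159 kb away, and 32.9% of gaps were as long.

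Etv6 encodes a repressor that keeps blood stem cells in the bone marrow, and its human counterpart is fused to RUNX1 in childhood leukaemia. Etv6 (ENSMUSG00000030199) had 8 regions on chromosome 6 between 133983569 and 134218019, the most of the 7 genes, with 20668 reads. As many were found at 36 of the 5867 listed genes (0.614%) and at 1.37% of genes in its length class. The regions spanned 234 kb, the same as the gene's length in RefSeq, 234 kb. The first 4 regions were separated by 1.35, 1.40 and 6.50 kb and included the 2 widest, of 7.65 and 6.75 kb. After a gap of 57.0 kb the next 3 followed at 22.2 and 33.8 kb, and the last stood 79.2 kb further on.

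Etv6 had the lowest read density of the 7 genes, 626 reads per kb (618 to 635), higher than 41.6% of listed genes. Scaled to the medians of their chromosomes, Fli1 (648), Elk3 (649.9) and Etv6 (652) were close together and Fli1 was the lowest. The gene with the most regions was thus not the one with the densest reads. Over all listed genes the median was 662 reads per kb for those with 1 region, 719 for those with 2 and 756 for those with 4 to 8. Before Etv6 the nearest region, shared by the lectin genes Clec1a and Clec9a, lay 4607 kb away, and 58 of 8112 gaps (0.715%) were as long. After it, the region of Bcl2l14 lay at 98.0 kb.

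Elk3 encodes a factor that binds with the serum response factor Srf, represses its targets until signalling by MAP kinases turns it into an activator, and acts in vessel growth. Elk3 (ENSMUSG00000008398) had 2 regions on chromosome 10 between 92757920 and 92800170, with 6882 reads. One was 9.30 kb wide, a width reached by 37 of all regions, and the other 1.55 kb. At 634 reads per kb (619 to 649) its interval overlapped that of Etv6, its neighbour in the order of read density. The nearest regions belonged to Cdk17, at 104 kb, and to Lta4h, at 103 kb.

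Elf1 and Elf2 encode related factors expressed in blood and endothelium, where both are known to act on the receptor gene Tie2. Elf1 (ENSMUSG00000036461) had 2 regions of 2.35 and 2.25 kb on chromosome 14 between 79920976 and 79938826, with 4706 reads. It had the highest read density of the 7 genes, 1023 reads per kb (994 to 1052), above 81.0% of listed genes. Chromosome 14 had a higher median, 865 reads per kb, than the table as a whole. Elf1 stood at 1.18 times the median of its chromosome, and Ets1 and Erg at 1.24 and 1.46 times the medians of theirs. The lead of Elf1 over Erg and Ets1 thus did not hold on that scale. The nearest regions were at Mtrf1, 122 kb before, and Sugt1, 49.0 kb after.

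Elf2 (ENSMUSG00000037174) had a single region of 1.70 kb on chromosome 3 from 51156452 to 51158152. It held 1330 reads, or 782 reads per kb (740.4 to 825). A single region was the rule in the table, found at 72.3% of listed genes. The nearest regions, at Ccrn4l and at 4930583H14Rik, lay 128 kb before and 22.8 kb after it. Within the pair, Elf1 had the higher reads per kb, and the intervals did not overlap. Relative to the chromosome medians the 2 were nearly level, with 1.18 times at Elf1 and 1.19 times at Elf2. No interval was made on that scale.

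In order of reads per kb the genes ran Elf1, Erg, Ets1, Elf2, Fli1, Elk3 and Etv6. The median of the 7 was 782 against 683 over all listed genes, and 4 of the 7 lay above the latter, near the 50.5% of protein-coding genes with a region that did. Over all 10 genes it was 4, against 10.6% of all protein-coding genes. Intervals of neighbours in this order overlapped only for Elk3 and Etv6, but they cover at most counting error, so the order was not tested. It changed when values were scaled to the chromosome medians. All 7 lay between the 41.6th and the 81.0th percentile of listed genes, so neither the highest nor the lowest read densities of the table were at these genes.

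**Figure D3:**
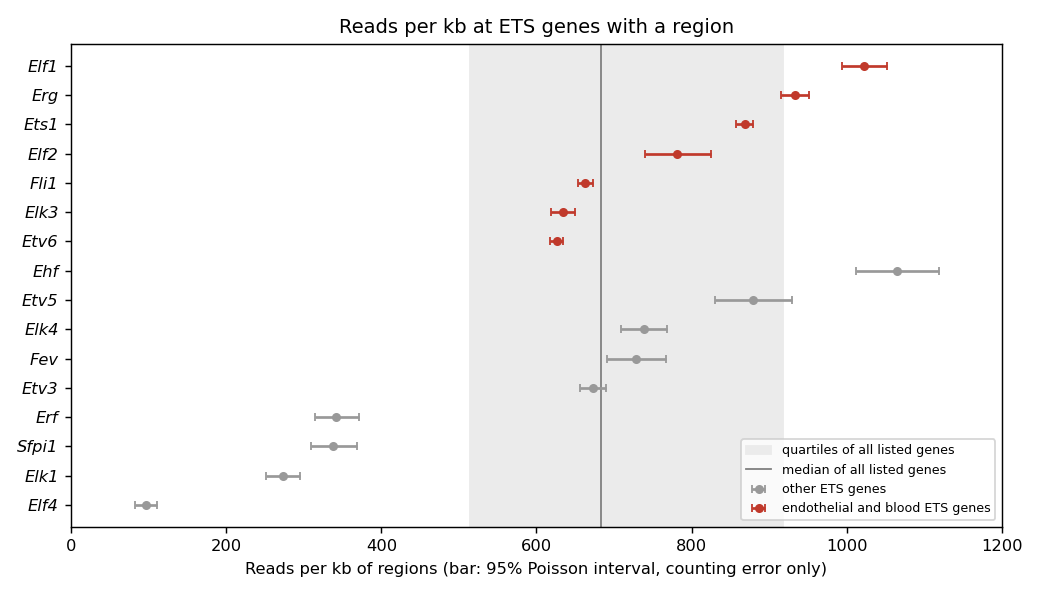
Reads per kb of regions (horizontal axis) at the 7 endothelial and blood ETS genes (red) and at 9 other ETS genes with a region (grey). Bars are 95% Poisson intervals that cover at most counting error. The line is the median of all listed genes, 683, and the band runs between their quartiles: the red points run from 626 at Etv6 to 1023 at Elf1, and 4 grey points lie below the band.

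**Figure D4:**
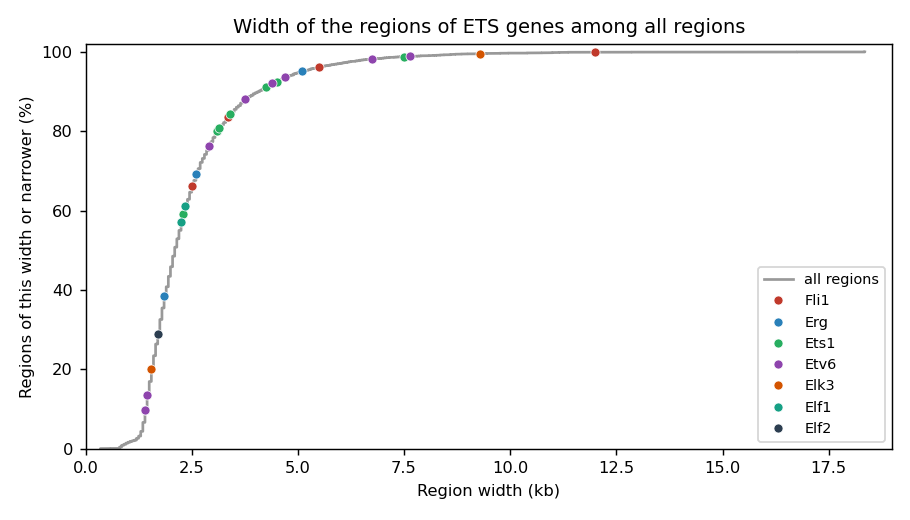
Share of all 8133 regions of a given width or narrower (vertical axis, %) against width in kb (horizontal axis), with the 29 regions of the ETS genes as points on the curve. The 12000 bp region of Fli1 and the 9.30 kb region of Elk3 lie at the upper end, and 6 of the 29 points lie at or under the median width of 2100.0 bp.

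Ets2, Etv2 and Gabpa had no region of their own, which limits only what was assigned to them, since the sources do not state how regions were assigned to genes. Ets2 encodes the closest relative of Ets1. In the gene order of the GRCm38 table it lies between Erg and the non-coding gene 1600002D24Rik, with 3 non-coding genes or pseudogenes of that table, none matched to a region, on either side of it. The gene 1600002D24Rik had 5 regions on chromosome 16 from 96046364 to 96153864 (mm9), up to 7.25 kb wide, and 20103 reads in all. With 1132 reads per kb (1117 to 1148) it exceeded 86.2% of listed genes and each of the 7 ETS genes. The first region after Erg in the table, 351 kb on, was assigned to the transcript 2810404F17Rik, and it came before those of 1600002D24Rik. The symbol 2810404F17Rik was not matched in the GRCm38 table, so its side of Ets2 was not determined. In gene order Ets2 thus had Erg with its regions on one side and 1600002D24Rik with its regions on the other.

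Etv2 encodes the factor that starts the vessel and blood programme in mesoderm and is then switched off. Its neighbour Rbm42, an RNA-binding protein gene, had 1 region of 2.45 kb on chromosome 7 from 31422631 to 31425081, at 962 reads per kb (924 to 1002). On the other side the nearest gene matched to a region was Lin37, with 9 genes of the GRCm38 table, none matched to a region, between. Gabpa encodes the DNA-binding subunit of GABP, a widely expressed factor of housekeeping promoters. Its neighbour App, the amyloid precursor gene, had 2 regions with 549 reads per kb (529 to 570.1). On the other side the next gene matched to a region, D16Ertd472e, came after 39 genes of the GRCm38 table with no match.

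Of the 17 other ETS genes of the mouse, 9 (52.9%) had a region, against 20.9% of protein-coding genes and a mean of 20.5% over the length classes of the 17. They had 1 region each except Etv3, a repressor, which had 2, so the 17 genes had 10 regions in all, against 29 for the 10 endothelial and blood genes. Only 2 of the 17 lie in the longest 2 length classes, against 7 of the 10. Their median was 673 reads per kb. The highest values were 1065 at Ehf, an epithelial factor, 879 at Etv5, 738 at Elk4, 728 at Fev, a factor of serotonin neurons, 673 at Etv3 and 342 at the repressor gene Erf. The gene of PU.1 (Sfpi1 in the table), Elk1 and Elf4 had less. Elk1 and Elf4 lie on chromosome X, where the median was 160 reads per kb, and the region of Elk1 was shared with Uxt. Etv1, Etv3l, Etv4, Spdef, Elf3, Elf5, Spib and Spic had none. Whether the 2 sets of ETS genes differ was not tested.

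Among 15 genes of known ETS partners 7 (46.7%) had a region, against 20.9% of protein-coding genes and a mean of 24.9% over the length classes of the 15. Their median of 1151 reads per kb was above that of the 7 ETS genes. Tal1 reached 1513 reads per kb, Srf, the partner of Elk3, 1272, Lyl1 1268, Foxc1, a forkhead factor that works with Etv2, 1151, the corepressor gene Sin3a 999 and Runx1 696. Gata2 had 682. The regions of Srf, Lyl1 and Sin3a were also assigned to other genes, Gm16736, Nfix and Trmt1, and 2700012I20Rik, so their reads are not theirs alone. No region was assigned to Lmo2, to Gabpb1 and Gabpb2, the genes of the partner subunits of Gabpa, to Foxc2 or to the cofactor genes Crebbp, Ep300, Ncor1 and Hdac3.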

How the data were processed

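DNA marked by Dam was sequenced on the SOLiD platform, per the labels' protocols, and regions are in the mm9 build, per the submitters' processing notes. For the aligner, the region caller, the use of the Dam libraries and the assignment of regions to genes, the labels and headers used here name no method. The authors deposited a read count per gene, a whole number, and the file header calls it only Read Count. They also deposited a signal, the reads per kb. In all 5867 genes it equalled, within 0.006, the count divided by the summed region length. That length had both end positions counted (end minus start plus 1 base). The headers do not say that the count is summed over the gene's regions, which was inferred from this match. There are no values per library, so the planned edgeR test was not made, and samples were grouped from titles only to describe the design.

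The members and gene lists were chosen with earlier results of these data known. Regions were parsed from the table with Python 3.11.15 and pandas 2.3.3. Printed widths are end minus start. Percentiles are shares of listed genes with a lower value. Poisson and Clopper-Pearson intervals are at 95%, from scipy 1.17.1, and were tested on simulated data. Symbols were matched by name, then synonym, on the same chromosome to a GRCm38.p6 RefSeq table. It gave gene length, cut into 10 classes, and gene order, and no coordinates except those of the promoter windows. All 10 members, genes sharing or neighbouring their regions, and up to 6 genes of each further list were named by rule. Gata2, the genes without a region and the neighbours of Ets2, Etv2 and Gabpa were named after their values were seen. Alternatives changed the gene background, the merging of regions and the scaling.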

Additional observations from a re-analysis of the deposited data

How the results depend on the processing

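The count of 7 genes with a region stayed at 7 with regions assigned to 1 gene only, against 18.0% of protein-coding genes. It was 6 with 2 or more regions required, against 6.42%. The count fell to 4 when reads per kb had to exceed the median of listed genes, against 10.6%. The background share of 20.9% was 10.2% over genes of all types and 33.4% as the mean over the length classes of the 10 genes. The 29 regions became 23 when gaps under 5 kb were merged and 18 with gaps under 20 kb. Scaled to the median of their chromosomes, reads per kb were 648 at Fli1, 997 at Erg, 849.5 at Ets1 and 652 at Etv6. They were 649.9 at Elk3, 808 at Elf1 and 815 at Elf2. On that scale Erg and Ets1 stood above Elf2 and Elf1, and Fli1 replaced Etv6 at the bottom. Elf2 was only just above Elf1, Fli1 was close to Elk3 and Etv6, and no interval was made on that scale. The choice of end positions moved none of the 7 values out of its printed interval. The median of 782 ran from 723 to 825 when each gene was left out. No paired analysis was possible because the table has no values per library. For the same reason no replicate was left out, and no other normalization or filter of the libraries was run. Depth per library is unknown, and variation between replicates, which is not in the printed intervals, was not measured.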
